A study of Mus musculus with 8 samples.

Results

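The 10 genes examined here encode proteins of the sperm head-tail coupling apparatus, and they were taken by symbol from a table of 19906 genes measured in mouse testis. All 10 were found, and all 10 passed the filter on low counts. RNA came from whole testes of mice aged 2 months, with 4 mice labelled Tmem232-/- and 4 labelled Tmem232+/+ and 1 library per mouse. Tmem232 encodes a transmembrane protein. The Tmem232-/- allele was made with CRISPR-Cas9 in C57BL/6 embryos by removing a fragment between introns 4 and 8, which shifts the reading frame, and the deletion is not restricted to a cell type. The Tmem232+/+ mice carried the intact gene, and the labels give no treatment for either group. Library totals lay between 15428421 and 16350871 counts. A whole testis mixes germ cells of all stages with somatic cells, so that fewer cells of a type and less RNA per cell cannot be told apart in these libraries.

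The coupling apparatus is the joint between the sperm head and the flagellum. It forms in elongating spermatids, when the centriole pair docks at a shallow pit of the nuclear envelope and is encased by the capitulum and segmented columns of the connecting piece. SUN domain proteins span the inner nuclear membrane and hold the nuclear side of the joint, and PMFBP1, SPATA6 and centriolar proteins build the side towards the tail. Loss of SUN5 or PMFBP1 leaves sperm whose heads come off, the condition known as acephalic spermatozoa.

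Of the 10 genes, 7 were higher in the libraries labelled Tmem232-/- at an adjusted p under 0.05 in edgeR, while 10.3% of all 15787 tested genes were higher by the same rule. None of the 10 was lower (0 genes at an adjusted p under 0.05 in edgeR, DESeq2 or limma-voom, and 0 at an unadjusted p under 0.05 in each of these), against 1.46% of all tested genes in edgeR. The genes that rose were Oaz3, Pmfbp1, Sun5, Spag4, Spatc1l, Sun3 and Spata6. The genes that were not called were Tsga10, Cntln and Cntrob, whose proteins are all tied to centrioles. A fold change of 2 or more with an unadjusted P under 0.05 was reached by 4 of the 10, namely Oaz3, Pmfbp1, Sun5 and Spag4, against 5.48% of all tested genes. All 4 libraries labelled Tmem232-/- lay above all 4 others for 7 of the 10, against 11.8% of all tested genes. The median log2 fold change of the 10 genes was 0.76 and that of all tested genes was -0.054.

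**Figure D1:**
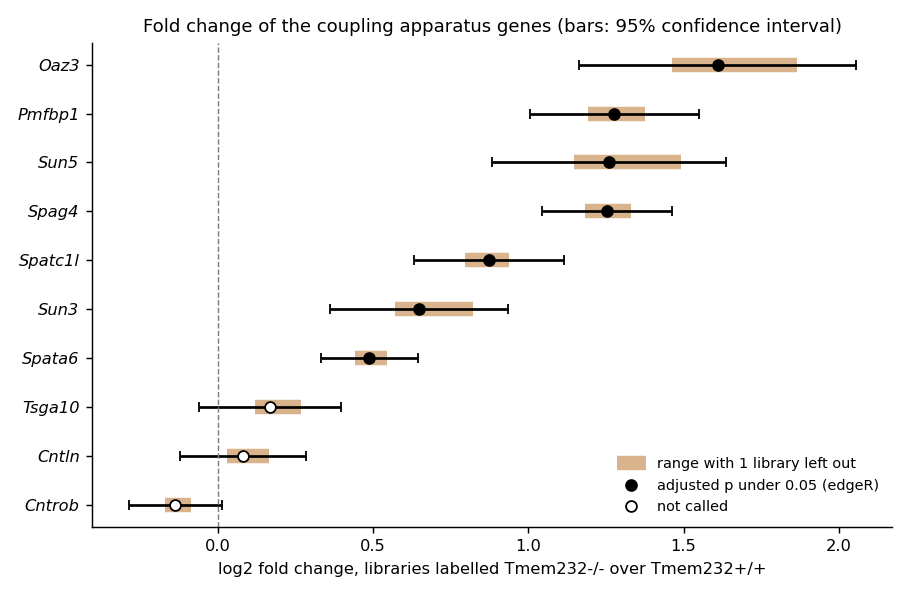
Log2 fold change of each coupling apparatus gene, libraries labelled Tmem232-/- over Tmem232+/+. Points are edgeR estimates with 95% confidence intervals, filled where the adjusted p was under 0.05, and tan bars give the range with each library left out in turn. The 7 filled points run from 0.49 (Spata6) to 1.61 (Oaz3), and the intervals of Tsga10, Cntln and Cntrob include 0.

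The genotype labels were checked on Tmem232 itself. It had 148, 132, 123 and 122 CPM (counts per 1000000 counts after TMM scaling) in replicates 1 to 4 labelled Tmem232-/- and 111, 106, 108 and 109.9 CPM in those labelled Tmem232+/+. Tmem232 was therefore not lower but higher in the libraries labelled Tmem232-/-, by 0.27 in log2 terms (adjusted p = 0.0335, edgeR). A knockout label would lead to a lower count if the whole transcript were lost. The deleted fragment spans only part of the gene, and reads from exons outside it still count towards Tmem232. The table has no counts per exon, so the count does not verify the labels, and groups are named by their labels throughout. The authors report PCR genotyping of the mice and no TMEM232 protein in Tmem232-/- testes. Libraries of one label differed among themselves in germ cell markers. The median level of 15 elongating spermatid markers on the log2 CPM scale was 3.72, 2.78, 4.92 and 3.95 in replicates 1 to 4 labelled Tmem232+/+, with replicate 3 the highest and replicate 2 the lowest. This median falls on different genes in different libraries. It was 7.37, 7.02, 6.19 and 7.39 in replicates 1 to 4 labelled Tmem232-/-, with replicate 3 the lowest. Values without either replicate 3 or replicate 2 of Tmem232+/+ are given beside Sun5, Sun3 and Oaz3, which moved most without replicate 3. Crisp1, a marker of the epididymis, the duct that adjoins the testis, was at 5.52 CPM in replicate 1 labelled Tmem232-/-, 27.0 CPM in replicate 1 labelled Tmem232+/+ and 9.94 CPM in replicate 3 labelled Tmem232+/+, and at most 0.86 CPM in the other 5 libraries. Without these 3 libraries, a choice made after seeing the data, the same call was made for each of the 10 genes. Of these, 7 rose (adjusted p under 0.05, edgeR), against 1338 of all 15989 genes tested in that fit. Of the 10, 0 fell, against 32 of all tested genes.

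The promoter sequences of 3 members are shown, those of Spag4 and Sun5, which rose together, and that of Cntln, which was not called. They come from a table of RefSeq windows on GRCm38.p6, from 250 bases before to 50 bases after a gene's start, in which 7 of the 10 genes were matched (11 windows). Lines are given 5′ to 3′ on the gene's strand and end before the start. Capitals mark the cAMP response element TGACGTCA, its half-site TGACG and the GC box GGGCGG, each searched on both strands. The cAMP response element is the site of CREM, a transcription factor of round spermatids. The lines are Spag4 at chr2:156064963-156065204 on the plus strand, Sun5 at chr2:153871085-153871334 on the minus strand and Cntln at chr4:84884059-84884308 on the plus strand.
Spag4: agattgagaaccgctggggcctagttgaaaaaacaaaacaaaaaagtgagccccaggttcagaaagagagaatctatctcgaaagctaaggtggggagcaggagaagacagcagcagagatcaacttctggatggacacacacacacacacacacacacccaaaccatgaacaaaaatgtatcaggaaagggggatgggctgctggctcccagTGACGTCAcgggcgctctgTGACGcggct
Sun5: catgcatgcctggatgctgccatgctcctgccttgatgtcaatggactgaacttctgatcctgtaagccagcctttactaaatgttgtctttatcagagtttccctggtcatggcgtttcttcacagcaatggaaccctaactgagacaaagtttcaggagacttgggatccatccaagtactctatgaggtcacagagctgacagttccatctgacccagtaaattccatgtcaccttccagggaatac
Cntln: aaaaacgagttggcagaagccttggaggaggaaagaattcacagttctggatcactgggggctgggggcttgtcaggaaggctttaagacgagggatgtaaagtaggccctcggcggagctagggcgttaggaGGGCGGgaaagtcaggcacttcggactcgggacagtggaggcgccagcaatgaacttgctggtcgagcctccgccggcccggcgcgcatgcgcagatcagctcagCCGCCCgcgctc

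The full element TGACGTCA was found in the window of Spag4 alone among the 11 windows, from 37 to 30 bases before the RefSeq start, and in 1.79% of 32851 mouse windows of the same length. In GENCODE M21 the match lies at the beginning of the first exon of Spag4. The half-site TGACG, which the full element holds on both strands, was in the windows of Spag4 and Spata6 and in 20.8% of all windows. GGGCGG was in the windows of Cntln and Spata6 and in 35.7% of all, CCAAT in 1 window of Sun3 and in 37.4% of all. Neither TATAAA nor the X-box half-site GTTGCC, a sequence bound by RFX factors of ciliated cells, was in any of the 11 windows, and 13.6% and 12.5% of all windows hold them. The Sun5 window had 2 CpG dinucleotides and a GC content of 48.7%, the Spag4 window had 14 and 55.3%, and the Cntln window had 26 and 63.7%. The median over all windows was 7 CpG dinucleotides and 52.7% GC, so that the windows of Sun5 and Spag4 lay on different sides of it.

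**Figure D2:**
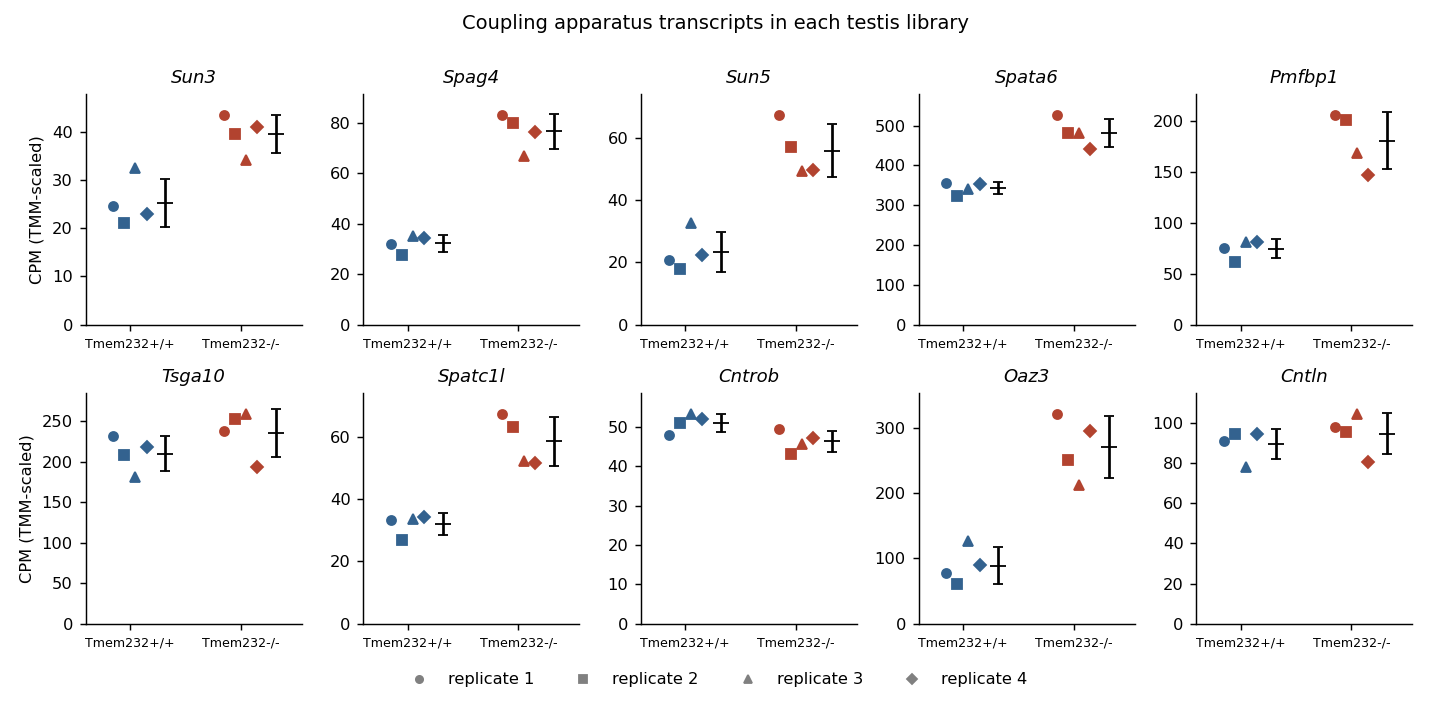
CPM of the 10 genes in each library, 1 panel per gene with its own axis from 0. The symbol's shape gives the replicate, with blue for Tmem232+/+ and red for Tmem232-/-, and black bars are the mean and SD of 4 libraries. In 7 panels the red symbols all lie above the blue ones, and in those of Tsga10, Cntrob and Cntln they overlap.

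The SUN domain genes Sun5, Spag4 and Sun3 all rose. SUN5 anchors the coupling apparatus to the nuclear envelope. Sun5 (Entrez ID 76407, chromosome 2, 153856188 to 153871084, minus strand) stood at 67.6, 57.3, 49.5 and 49.8 CPM in replicates 1 to 4 labelled Tmem232-/- against 20.7, 17.7, 32.6 and 22.5 CPM in those labelled Tmem232+/+. The groups did not overlap, and replicate 3 labelled Tmem232+/+ was the closest to the other group. The means were 56.0 ± 8.49 (SD, n = 4) and 23.4 ± 6.45 CPM (SD, n = 4). In log2 terms Sun5 rose by 1.26 (standard error, SE, 0.17, adjusted p = 0.000395, edgeR quasi-likelihood test), and by 1.49 without replicate 3 and 1.15 without replicate 2 labelled Tmem232+/+.

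SPAG4, also called SUN4, is a spermatid SUN protein that takes part in shaping the head and in attaching the tail. Spag4 (Entrez ID 245865, chromosome 2, 156065175 to 156070617, plus strand) measured 83.1, 79.96, 66.9 and 76.2 CPM in the libraries labelled Tmem232-/- against 31.8, 27.4, 35.2 and 34.1 CPM in the others. The lowest library of the knockout label was thus well above the highest of the wild-type label. Its log2 fold change of 1.25 (SE 0.096, adjusted p = 2.11e-05, edgeR) was close to that of Sun5, and its group means were 76.5 ± 7.02 (SD, n = 4) and 32.1 ± 3.48 CPM (SD, n = 4). Of the 7 called genes it had the lowest adjusted p.

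SUN3 lies at the spermatid nuclear envelope along the manchette, the microtubule skirt that shapes the nucleus. Sun3 (Entrez ID 194974, chromosome 11, 9016054 to 9048991, minus strand) measured 43.6, 39.7, 34.1 and 41.1 CPM in the libraries labelled Tmem232-/- against 24.7, 21.1, 32.5 and 22.9 CPM in the others. The groups came near each other, at 34.1 CPM in replicate 3 labelled Tmem232-/- and 32.5 CPM in replicate 3 labelled Tmem232+/+. The log2 fold change was 0.65 (SE 0.13, adjusted p = 0.00595, edgeR) and 0.82 when replicate 3 labelled Tmem232+/+ was left out or 0.57 when replicate 2 was. In GENCODE, 9.47% of the exon bases of Sun3 are shared with Gm11992 on the opposite strand, and the TruSeq RNA kit used here does not mark strand. Gm11992 had 84.2 ± 7.01 (SD, n = 4) and 86.6 ± 4.96 CPM (SD, n = 4), which was not called (adjusted p = 0.776, edgeR).

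The levels of the SUN genes relative to each other were compared within each library, without a test, since these ratios were chosen after the values were seen. The log2 ratio of Spag4 to Sun3 was 0.93, 1.01, 0.97 and 0.89 in replicates 1 to 4 labelled Tmem232-/- against 0.37, 0.37, 0.12 and 0.58 in the others. That of Sun5 to Sun3 was 0.63, 0.53, 0.54 and 0.28 in the libraries labelled Tmem232-/- against -0.25, -0.25, 0.01 and -0.03 in the others. Neither ratio overlapped between the groups. The ratio of Sun5 to Spag4 overlapped, with means of -0.46 ± 0.13 (SD, n = 4) and -0.49 ± 0.25 (SD, n = 4). Sun3 thus lay lower against both other SUN genes in the libraries labelled Tmem232-/-.

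The connecting piece genes Pmfbp1, Spatc1l and Spata6 also rose, to different extents. PMFBP1 bridges SUN5 and the tail side of the joint. Pmfbp1 (Entrez ID 56523, chromosome 8, 109494027 to 109542640, plus strand) stood at 206, 201, 169 and 146 CPM in replicates 1 to 4 labelled Tmem232-/- against 75.1, 61.0, 81.1 and 80.7 CPM in those labelled Tmem232+/+. All libraries of the knockout label were higher than any other, with means of 181 ± 28.0 (SD, n = 4) and 74.5 ± 9.40 CPM (SD, n = 4). In log2 terms Pmfbp1 rose by 1.28 (SE 0.12, adjusted p = 4.94e-05, edgeR).

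SPATC1L is a testis protein of the neck whose loss lets heads and tails separate. Spatc1l (Entrez ID 76573, chromosome 10, 76562272 to 76570201, plus strand) measured 67.4, 63.2, 52.2 and 51.6 CPM in the libraries labelled Tmem232-/- against 33.1, 26.9, 33.7 and 34.2 CPM in the others, without overlap. Its log2 fold change was 0.87 (SE 0.11, adjusted p = 0.000233, edgeR). An antisense gene of GENCODE, Gm15343, covers 10.1% of its exon bases and is not in the table used here. The related gene Spatc1, which encodes speriolin of the centrosome, had a log2 fold change of 2.77 (SE 0.26, adjusted p = 4.77e-05, edgeR), from 1.99 ± 0.89 (SD, n = 4) to 13.6 ± 3.10 CPM (SD, n = 4).

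SPATA6 is needed to build the segmented columns. Spata6 (Entrez ID 67946, chromosome 4, 111719984 to 111829184, plus strand) measured 527, 480.3, 480.2 and 440.0 CPM in the libraries labelled Tmem232-/- against 357, 324, 342 and 353 CPM in the others. The groups were separate, and the difference was the smallest of the 7 that were called, with a log2 fold change of 0.49 (SE 0.071, adjusted p = 0.00066, edgeR). Spata6 was the most abundant of the 10 genes per transcript length in the libraries labelled Tmem232+/+, and Oaz3 was in those labelled Tmem232-/-.

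Of the 10 genes, Oaz3 rose most. OAZ3 is the testis antizyme, a protein made by ribosomal frameshifting that restrains polyamine synthesis, and its loss weakens the joint of head and tail. Oaz3 (Entrez ID 53814, chromosome 3, 94432414 to 94443915, minus strand) stood at 321, 251, 213 and 294 CPM in replicates 1 to 4 labelled Tmem232-/- against 76.8, 60.3, 127 and 89.7 CPM in those labelled Tmem232+/+. The groups did not overlap, and replicate 3 labelled Tmem232+/+ was the highest of its label. The means were 269.7 ± 47.6 (SD, n = 4) and 88.4 ± 28.2 CPM (SD, n = 4). In log2 terms Oaz3 rose by 1.61 (SE 0.20, adjusted p = 0.000235, edgeR), and by 1.86 without replicate 3 and 1.46 without replicate 2 labelled Tmem232+/+.

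The deposited counts of Oaz3 are not whole numbers, and the rule by which reads were shared out is not given in the sources used here. Its GENCODE exons lie over 2 genes of the opposite strand, Tdrkh with 52.1% and Mrpl9 with 3.63% of the exon bases of Oaz3. Tdrkh, which encodes a Tudor domain protein of the piRNA pathway, had 91.2 ± 6.59 (SD, n = 4) and 94.3 ± 7.96 CPM (SD, n = 4) and was not called (log2 fold change -0.047, adjusted p = 0.75, edgeR). Mrpl9 was not called either (log2 fold change -0.11, adjusted p = 0.395, edgeR). Reads from overlapping bases cannot be told apart without strand.

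The 3 genes tied to centrioles were not called. TSGA10 is a coiled-coil protein of the centriole region and fibrous sheath. Tsga10 (Entrez ID 211484, chromosome 1, 37754776 to 37866429, minus strand) stood at 238, 252, 259 and 193 CPM in replicates 1 to 4 labelled Tmem232-/- against 232, 208, 181 and 218 CPM in those labelled Tmem232+/+. The groups overlapped, since replicate 4 labelled Tmem232-/- was below 3 of the others. The log2 fold change was 0.17 with a 95% confidence interval from -0.06 to 0.40 (adjusted p = 0.347, edgeR).

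CNTLN, or centlein, is a centriole linker protein that joins SUN5 and PMFBP1. Cntln (Entrez ID 338349, chromosome 4, 84884309 to 85131921, plus strand) measured 98.0, 95.6, 104.6 and 80.5 CPM in the libraries labelled Tmem232-/- against 91.0, 94.6, 78.3 and 94.4 CPM in the others. The values overlapped, with a log2 fold change of 0.08 and an interval from -0.12 to 0.28 (adjusted p = 0.627, edgeR). This interval lies below those of all 7 called genes, of which that of Spata6 begins lowest, at 0.33.

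CNTROB, or centrobin, is a protein of daughter centrioles that is also found along the manchette. Cntrob (Entrez ID 216846, chromosome 11, 69299487 to 69323775, minus strand) measured 49.5, 43.2, 45.7 and 47.3 CPM in the libraries labelled Tmem232-/- against 47.9, 51.0, 53.3 and 52.1 CPM in the others. Replicate 1 of each label fell within the range of the other group. It alone of the 10 had a negative log2 fold change, -0.14 with an interval from -0.29 to 0.01 (adjusted p = 0.239, edgeR). For single genes, an exact two-sided permutation test of mean CPM gave p = 0.029 for each of the 7 called genes, the smallest that 4 libraries against 4 allow, and p = 0.2 for Tsga10, 0.4 for Cntln and 0.057 for Cntrob.

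Levels of different genes were compared by FPKM, which takes transcript length into account. In the libraries labelled Tmem232+/+ the order was Spata6 (153 ± 4.57 FPKM, SD, n = 4), Oaz3 (115 ± 37.3), Tsga10 (69.3 ± 7.09), Spatc1l (28.8 ± 2.84), Sun3 (25.0 ± 5.11), Spag4 (24.1 ± 2.62), Sun5 (23.6 ± 6.62), Pmfbp1 (23.2 ± 2.90), Cntln (21.1 ± 1.19) and Cntrob (14.3 ± 0.95). The ranges of Spata6 and Oaz3 overlapped, as did those of each neighbouring pair from Spatc1l down to Cntln. In the libraries labelled Tmem232-/- the order began with Oaz3 (343 ± 59.0 FPKM, SD, n = 4), Spata6 (209 ± 11.8) and Tsga10 (77.5 ± 9.07), which did not overlap. Spag4 (56.2 ± 4.88), Pmfbp1 (54.6 ± 7.66), Sun5 (54.2 ± 7.43) and Spatc1l (51.5 ± 6.44) followed, each overlapping its neighbour. Sun3 (38.5 ± 3.92), Cntln (21.4 ± 1.74) and Cntrob (12.6 ± 0.79) came last, each separate from the next. The range of Cntln thus overlapped that of Pmfbp1 in the libraries labelled Tmem232+/+ and lay below it in those labelled Tmem232-/-.

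**Figure D3:**
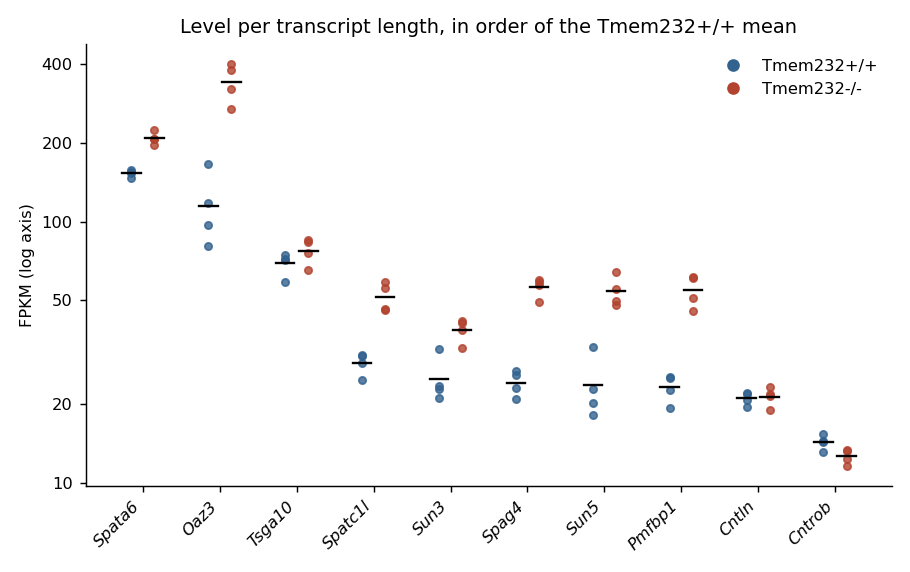
FPKM of each gene on a log axis, in order of the mean of the libraries labelled Tmem232+/+. Points are single libraries, blue for Tmem232+/+ and red for Tmem232-/-, and black lines are means of 4 libraries. Spatc1l, Sun3, Spag4, Sun5, Pmfbp1 and Cntln have blue means between 21.1 and 28.8 FPKM, and red means between 21.4 and 56.2 FPKM.

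Within each label the 7 genes that rose varied together from mouse to mouse. Replicate 1 labelled Tmem232-/- was the highest of its label for all 7, and replicate 2 labelled Tmem232+/+ was the lowest of its label for all 7. Replicate 3 labelled Tmem232+/+ was the highest of its label for 5 of the 7. As a description over 8 libraries, in which germ cell markers vary as well, the deviations of log2 CPM from the mean of the label had a Pearson's r between 0.21 and 0.96 over the 21 pairs of these genes, with a median of 0.76. Pmfbp1 and Spatc1l were the closest pair (0.96), followed by Sun3 and Oaz3 (0.93). Tsga10 and Cntln also varied together (0.90), and each went against Sun3 and Oaz3, with r between -0.73 and -0.57. They were also negative with Spag4 (-0.25 and -0.44) and Sun5 (-0.30 and -0.40). Both were positive with Spata6 (0.56 and 0.46), Pmfbp1 (0.35 and 0.16) and Spatc1l (0.23 and 0.03). Cntrob, also not called, was positive with Sun3 (0.41) and Oaz3 (0.58) and negative with Tsga10 (-0.57).

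For each gene, those of 12133 genes with a mean of at least 5 CPM whose log2 CPM was most alike over the 8 libraries were also found, as a description without a test; this likeness includes the difference between the labels. For Oaz3 they were Cst8, Hypm and Cypt4, each with r = 0.999. For Spag4 the closest were 4931429L15Rik, Gsg1 and Fam71f1, and for Sun5 9530057J20Rik, Fam71e2 and Gm6729, all with r of at least 0.997. For Sun3 they were 1700013F07Rik, Gm14147 and 1110017D15Rik. Dcst1, which encodes a sperm membrane protein of fertilization, was among the 3 closest of both Pmfbp1 (0.998) and Spatc1l (0.996). For Spata6 the list was Muc4, Rnf139 and Fam161a, the last of which encodes a centriole protein. Tsga10 had Cep128 (0.98), Dpy19l2 and Eif4g3 as its closest, Cntln had Mpp5 and Ctdspl2, and Cntrob had Gml, Neto2 and Parp2.

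Genes around the joint were described by lists. Among 17 tested genes known for head-tail attachment beside the 10, 6 rose and 0 fell (adjusted p under 0.05, edgeR), against 10.3% and 1.46% of all tested genes, with a median log2 fold change of 0.16. The largest were Spem1 with 2.90, Spatc1 with 2.77, Odf1 with 1.33 and Spata20 with 1.18 on the log2 scale. ODF1 is a main protein of the outer dense fibers, and SPEM1 acts in the removal of spermatid cytoplasm. The 11 that were not called had log2 fold changes from -0.12 (Hspb9) to 0.17 (Ift88).

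Of 12 LINC and lamina genes, which carry force between the nucleus and the cytoskeleton, 1 was higher, a share near the 10.3% of all tested genes. This was Lmnb2, a B-type lamin, with 64.4 ± 10.8 (SD, n = 4) and 36.1 ± 7.54 CPM (SD, n = 4), which is 0.84 in log2 terms (SE 0.15, adjusted p = 0.00276, edgeR). The broadly expressed SUN genes Sun1 and Sun2 had log2 fold changes of 0.10 and -0.14 and were not called (adjusted p = 0.407 and 0.335, edgeR). The nesprin genes Syne1, Syne2, Syne3 and Syne4, whose proteins bind SUN proteins across the envelope, had 0.03, 0.00, 0.31 and 0.45 and were not called. The median of the list was 0.01. Of the SUN genes in the table, those called were thus the spermatid ones Sun3, Spag4 and Sun5, while Sun1 had 160 ± 8.90 (SD, n = 4) and 149 ± 9.08 CPM (SD, n = 4).

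Of 42 tested centriole and centrosome genes, 5 rose and 0 fell, and the median log2 fold change was 0.03. This share is near the 10.3% of all tested genes that were higher, and it is no result about the list. Fam161a had 0.53, Cep290 0.47, Cep57 0.38 and Odf2 0.31 on the log2 scale. Odf2, which encodes a protein of outer dense fibers and centriole appendages, was abundant, with 1708 ± 85.8 (SD, n = 4) and 1377 ± 116 CPM (SD, n = 4). In edgeR the other 37 of the 42 were not called. DESeq2 called 6 of the 42 as higher, against 1822 of all 15787 tested genes.

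Of 12 antizyme and polyamine genes other than Oaz3, 1 was higher, namely Azin2, the testis and brain antizyme inhibitor, with 10.3 ± 2.51 (SD, n = 4) and 4.95 ± 1.04 CPM (SD, n = 4) and a difference of 1.06 in log2 terms (adjusted p = 0.00465, edgeR). The widely expressed antizymes Oaz1 and Oaz2 had log2 fold changes of -0.21 and -0.13 and were not called (adjusted p = 0.143 and 0.31, edgeR). Odc1, which encodes ornithine decarboxylase, the enzyme that antizymes bind, had 0.20 and was not called (adjusted p = 0.355, edgeR). The median of the list was -0.11, and its share of higher genes was near that of all tested genes, 10.3%.

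**Figure D4:**
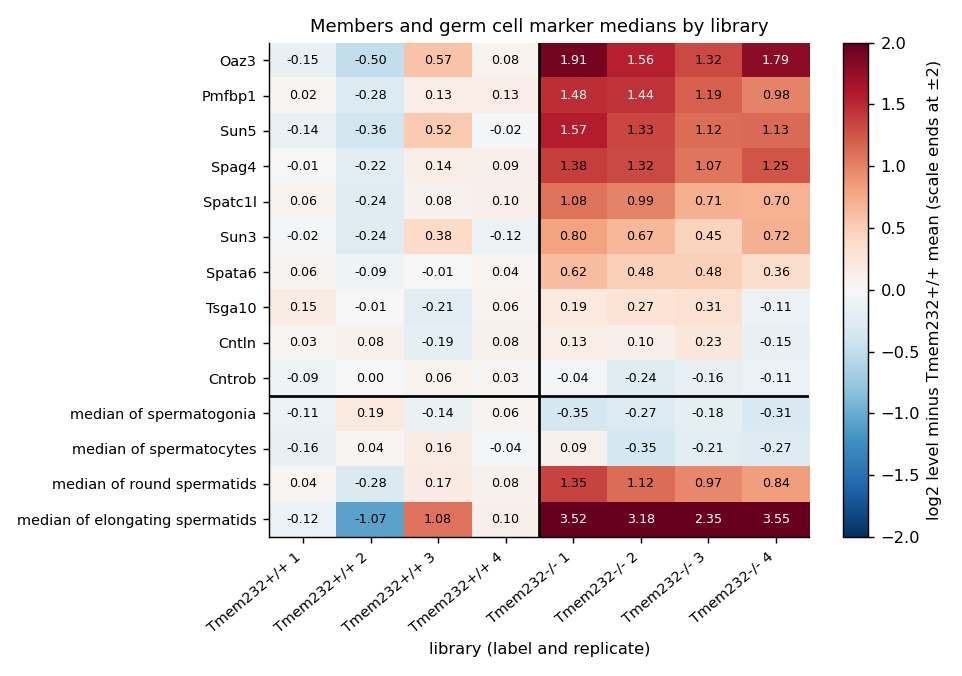
Log2 level of each gene, and median log2 level of 4 marker lists, minus the mean of the libraries labelled Tmem232+/+, for each library. Red is higher and blue is lower, with colours ending at 2. The 7 genes that rose are positive in all 4 libraries labelled Tmem232-/-, as are the medians of the round and elongating spermatid markers. The median level of the elongating list falls on different genes in different libraries, so its shift is larger than the median log2 fold change of these markers, 1.67.

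Markers of germ cell stages moved with these genes, and their part in the differences was not tested. Of 15 round spermatid markers, 11 rose and 0 fell (adjusted p under 0.05, edgeR), against 10.3% and 1.46% of all tested genes, with a median log2 fold change of 1.06. Their summed level was 2050 to 2456 CPM in the libraries labelled Tmem232-/-, while the others had 1353 to 1719 CPM. Of 15 elongating spermatid markers, 14 were higher, against the same 10.3% of all tested genes, and Hspb9 was not called, with a median of 1.67 and summed levels of 3251 to 4220 and 1954 to 2312 CPM. The protamine and transition protein genes Prm2, Prm1, Tnp2 and Tnp1, which pack the spermatid nucleus, had log2 fold changes from 3.54 (Tnp1) to 4.44 (Prm2). Their levels were low in the libraries labelled Tmem232+/+. Prm2 had 67.86 to 196.3 CPM in the libraries labelled Tmem232-/- against 2.664 to 12.54 CPM in the others. In the same order, Prm1 had 44.27 to 131.8 against 1.635 to 7.536 CPM. Tnp2 had 120.2 to 340.9 against 6.721 to 31.28 CPM, and Tnp1 had 36.68 to 90.62 against 2.725 to 10.01 CPM. Of these 15 genes, Odf1 and Hspb9 were also counted among the attachment genes above and Odf2 among the centriole genes. The lowest marker was Tex37, with 6.26 to 13.6 CPM in the libraries labelled Tmem232-/- against 0.42 to 1.84 CPM in the others.

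Among other germ cells, 3 of 12 spermatogonial markers were lower, against 1.46% of all tested genes (Sohlh1, Stra8 and Uchl1, with log2 fold changes of -0.55, -0.36 and -0.35), and their summed level was 280.0 to 310.5 CPM against 336 to 363 CPM. Of 14 spermatocyte markers, 2 were lower (Dmc1 and Tex101) and 1 was higher (Spag6, at 0.86, a gene that also serves the flagellum), against 1.46% and 10.3% of all tested genes, and the summed levels of 5670 to 6504 and 5938 to 6318 CPM overlapped.

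Of the somatic lists, 0 of 12 Sertoli cell, 0 of 9 Leydig cell, 0 of 9 macrophage and 0 of 8 endothelial markers were called at an adjusted p under 0.05 in edgeR. For the Leydig cell markers this depended on the tool, since DESeq2 called 2 and limma-voom 1 of the 9 as higher. Of all 15787 tested genes, DESeq2 called 1822 and limma-voom 1622 as higher. In edgeR 8 of the 9 had a positive log2 fold change, with a median of 0.37, and 5 were higher at an unadjusted p under 0.05. Lhcgr, the receptor for luteinizing hormone, had the largest, 0.95 (adjusted p = 0.0512, edgeR), and Star and Cyp17a1, both of steroid synthesis, lay above the other group in all 4 libraries labelled Tmem232-/-. Of the Sertoli cell markers, 11 of 12 had a negative log2 fold change, with a median of -0.14, and 2 were lower at an unadjusted p under 0.05, as were 2 endothelial and 0 macrophage markers. DESeq2 and limma-voom called 0 genes of these 3 lists. The median log2 fold change of all tested genes was also negative, -0.054. No share of all tested genes is given at an unadjusted p, so nothing is read from the counts at that level. Of 7 peritubular myoid markers, Actg2 was higher (1.20) and Acta2 and Myh11 were lower (-0.38 and -0.34), against 10.3% and 1.46% of all tested genes. Of 5 tested red blood cell markers and 3 tested epididymis markers 0 were called by edgeR, DESeq2 or limma-voom and 0 had an unadjusted p under 0.05 in edgeR or DESeq2 (2 red blood cell markers were lower at that level in limma-voom), and Lcn5 had at most 3 counts in every library. The summed levels of all these lists overlapped between the labels.

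Set against the median of the round spermatid markers in the same library, the members fell into different places. In all 8 libraries this median was the level of 1 gene, Spaca1, which encodes an acrosome membrane protein, so these are comparisons with that gene. The log2 level of Sun5 minus that median was -0.70 ± 0.06 (SD, n = 4) in the libraries labelled Tmem232-/- against -0.92 ± 0.23 (SD, n = 4) in the others, and the groups overlapped. They overlapped also for Spag4 (-0.25 and -0.43), Sun3 (-1.20 and -0.79) and Oaz3 (1.56 and 0.98). Pmfbp1 lay higher against the median in all libraries labelled Tmem232-/-, by 0.20 on average, and Spatc1l lay lower in all, by a difference of -0.20. Spata6 (-0.58), Tsga10 (-0.90), Cntln (-0.99) and Cntrob (-1.21) were lower against that median without overlap. The median level of the elongating spermatid markers was not used in this way, because it falls on different genes in different libraries and moved by more than the markers' median log2 fold change of 1.67. The log2 fold change of Oaz3, 1.61, was near that median, and those of the other 9 genes were at most 1.28. Against the median of the spermatocyte markers, which rests on the middle pair of genes (Hormad1 with Sycp3, or with Syce1 in replicate 3 labelled Tmem232+/+), the 7 genes that rose were higher in all 4 libraries labelled Tmem232-/-, by 0.67 (Spata6) to 1.83 (Oaz3), and Tsga10 (0.35), Cntln (0.26) and Cntrob (0.05) overlapped. These are descriptions of levels relative to markers, without a test.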

How the data were processed

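RNA was prepared from whole testes with TRIzol and the TruSeq RNA kit, and sequenced with paired-end reads. The authors mapped reads to GRCm38.p6 with HISAT and Bowtie2, obtained counts per gene with StringTie and featureCounts and used DESeq2; versions are not given in the sources used here. As deposited, the authors' estimated counts carry no normalization; they were rounded, since 10.7% to 11.2% of genes had a fractional value. The FPKM deposited by the authors were proportional to count over library total within 5% for 99.95% of values of 820 single-transcript genes. The log2 fold change, p-value and q-value columns deposited by the authors hold their own comparison and were not used.

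Counts were analysed with edgeR 4.0.16 in R 4.3.3 (default filter on low counts, TMM, quasi-likelihood test without covariates), with Benjamini-Hochberg adjustment over 15787 tested genes. CPM are TMM-scaled. SE is the log2 fold change divided by the square root of F. Alternatives were DESeq2 1.42.0, limma-voom (limma 3.58.1), other scalings and filters, FPKM plus 1 or 0.1 on the log2 scale with limma, a replicate block, each library left out and, added after seeing the data, the 3 libraries with Crisp1 above 1 CPM left out. Only the edgeR, DESeq2 and limma-voom fits were tested on simulated counts. In these, as many genes were raised as lowered, while in the data 1633 genes were higher and 230 lower. The ratios, marker comparisons and likeness were not tested in this way. Permutation tests and ratios used Python 3.11.15 with scipy 1.17.1. Coordinates and strands are from GENCODE M21 on GRCm38, since the table lists Sun3 and Oaz3 on the other strand.

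The 10 genes and all lists were chosen with earlier results of these data known, and the lists were written from general knowledge. Genes named were the 10, all of the LINC and antizyme lists where given, up to 4 called genes of a list with the largest change, and the 3 most alike genes of each member, of which 1 is not reported here. Other genes named, as ends of a range or among Leydig cell markers and median genes, were chosen after their values were seen. The 8 mice are separate animals. Replicate numbers were not used to pair mice.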

Additional observations from a re-analysis of the deposited data

Results flagged for a closer look

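Among 20 groups of 4 libraries, 1 had a library far from the others by Dixon's test, where chance gives about 1 in 20. Spatc1l had 26.9 CPM in replicate 2 labelled Tmem232+/+, against 33.1, 33.7 and 34.2 CPM in replicates 1, 3 and 4. The same library was the lowest of its label for all 7 genes that rose. Without it the log2 fold change of Spatc1l was 0.80 in place of 0.87.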

How the results depend on the processing

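The same 7 genes were higher, and 0 were lower, in all 18 alternatives (10 with all libraries kept and 8 that each left out 1 library), and each of the 10 genes kept its direction and its side of the threshold in all 18. The largest adjusted p of a called gene was 0.0259, for Sun3 without replicate 4 labelled Tmem232+/+ (edgeR), and the smallest of an uncalled gene was 0.071, for Tsga10 without replicate 4 labelled Tmem232-/- (edgeR). Cntrob had an unadjusted p under 0.05 with library size alone, with FPKM and without replicate 1 labelled Tmem232-/-. The median log2 fold change of the 10 genes ranged from 0.683 to 0.875 with 1 library left out, the highest being without replicate 3 labelled Tmem232+/+, and from 0.716 to 0.801 with all libraries kept; the cause was not tested. Without the 3 libraries with Crisp1 above 1 CPM, chosen after seeing the data, the median was 0.857, and each gene kept its direction and its side of the threshold. At a fold change of 1.5 in place of 2, 6 genes passed in place of 4. No share of all tested genes is given at 1.5, so nothing is read from this count. No scaling moved the median of all genes by 0.1 on the log2 scale. Over all tested genes, the 1633 higher ones ranged from 1317 to 1865, and the 230 lower ones from 28 (replicate block) to 466 (FPKM plus 1); leaving out replicate 1 labelled Tmem232+/+ gave 37 lower genes, and leaving out replicate 4 labelled Tmem232-/- gave 356.

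With the replicate number as a block, 7 genes were higher, against 1317 of all 15787 tested genes, and 0 were lower, against 28. The median of the 10 was 0.764. Same-numbered mice did not deviate together (Pearson's r across genes of -0.061, 0.072, -0.33 and -0.11 for numbers 1 to 4), and not every mouse was most like the one of its own number. The labels name no pairing, and these values of r show none but cannot exclude it. With 4 mice a label, the precision is limited: the interval of Tsga10 reaches 0.40 and that of Cntln 0.28.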
